A study of Sus scrofa with 9 samples.

Results

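Transcripts of nuclear lamina proteins, HMGB proteins and chromatin repressors were measured in endothelial cells of the pig coronary artery. Of 10 genes listed for this group, 6 had a probe set whose platform annotation named that gene and no other, and these were LMNB1, LMNA, TMPO, HMGB1, HMGB2 and EZH2. They carried 10 probe sets among the 10069 that had 1 gene symbol, and 9 of the 10 were bright enough to be tested. LMNB2, HMGB3, LBR and CBX5 were not analysed here, and 1 probe set that named EZH2 together with a second gene was left out. The genes were listed because they are known from other systems to decline in senescent cells, and the list was drawn up with earlier results of these arrays known.

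The study hybridised RNA of cultured porcine coronary arterial endothelial cells to 9 Affymetrix arrays, with 3 arrays for each of 3 groups. Passage 4 cells came from weekly passaging of primary cultures and are called senescent in the labels. Regenerated cells had regrown in the living vessel after the endothelium was stripped off, and were scraped and cultured with no further passage. Passage 1 cells, cultured for 1 week, were the controls. The labelling reaction started with 1 ug of RNA for passage 4 and passage 1 cells and with 0.5 to 1 ug for regenerated cells, so RNA input and group cannot be told apart for regenerated cells. The labels name no strain, sex or age and leave unsaid whether replicate arrays stand for different animals, cultures or aliquots. A p-value here therefore weighs a difference against array-to-array spread alone, and that spread may be technical. In such bulk RNA, fewer cells of a type and less RNA per cell cannot be told apart.

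The nuclear lamina is a meshwork of A-type and B-type lamins under the inner nuclear membrane, to which peripheral heterochromatin is tethered by membrane proteins such as the products of TMPO and LBR. HMGB proteins bend DNA inside the nucleus, and HMGB1 can also leave the cell and act as an alarm signal on receptors of the vessel wall. Loss of lamin B1, exit or loss of HMGB proteins and lower EZH2 are known marks of senescence in cultured human cells, and transcripts of several of these genes are also known to be most abundant in dividing cells.

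Values are MAS5 signals on a linear scale, and differences are in units of log2(signal + 16). An adjusted p under 0.05 over the 15299 tested probe sets in limma counted as past the threshold. In passage 4 against passage 1 cells, 0 of 9 member probe sets passed and 4 had an unadjusted p under 0.05, against 4.79% and 19.7% of all tested probe sets. Those 4 were of TMPO, EZH2 and, with 2 probe sets, HMGB1. In regenerated against passage 1 cells, 0 of 9 passed and 2 had an unadjusted p under 0.05, against 5.49% and 22.0% of all. In passage 4 against regenerated cells, 3 of 9 passed, all higher at passage 4, against 12.5% of all tested probe sets and 8.14% that passed upward, and 5 had an unadjusted p under 0.05, against 28.6%. The 3 were LMNB1, TMPO and EZH2. The comparisons with passage 1 share its 3 arrays, and the others share the arrays of passage 4 or of regenerated cells, so they are not independent. Exact permutation of 3 against 3 arrays cannot give a p below 0.1, so single values were not tested in that way.

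**Figure D1:**
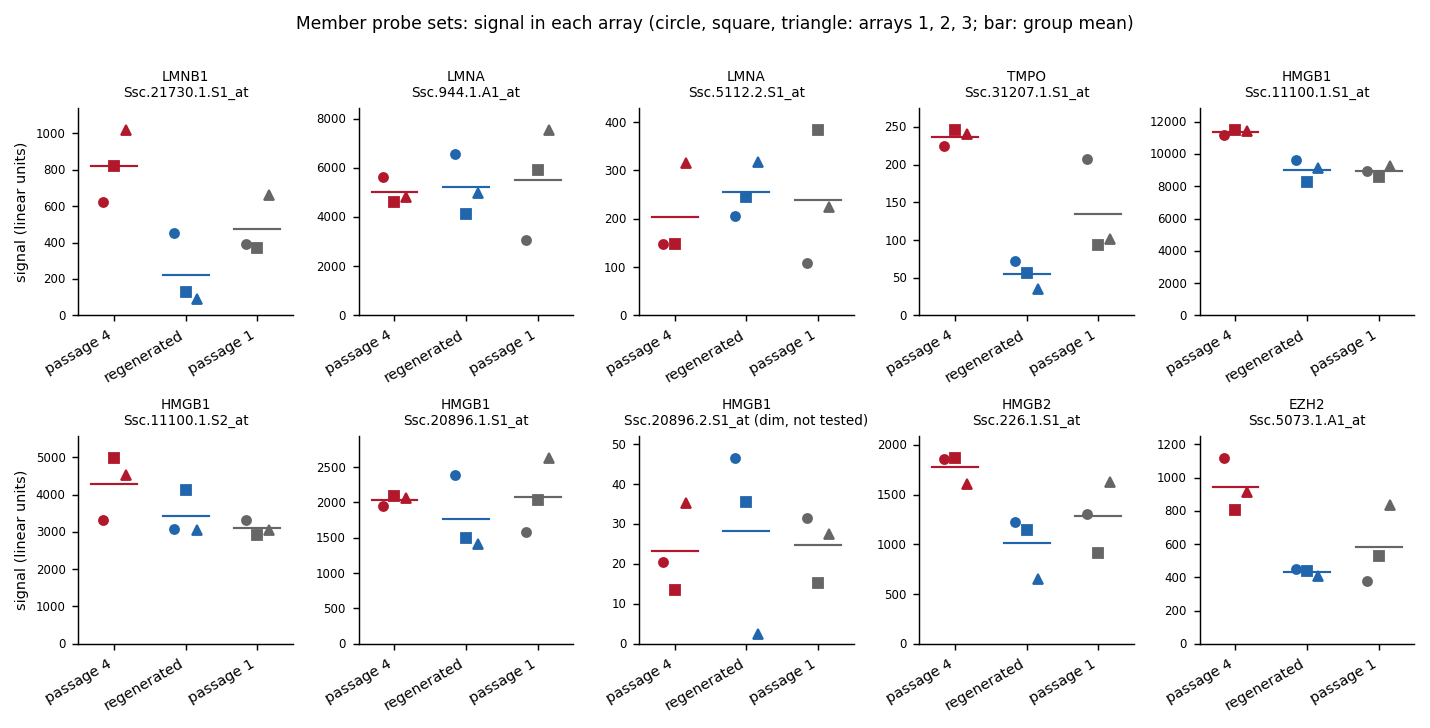
Signal of each of the 10 member probe sets (y axes, linear units, each starting at 0) in passage 4, regenerated and passage 1 cells (x axis), with circle, square and triangle for arrays 1, 2 and 3 and a bar at the group mean. All passage 4 arrays lie above all regenerated arrays for LMNB1, TMPO, HMGB2, EZH2 and the HMGB1 probe set Ssc.11100.1.S1_at, while the groups overlap for both LMNA probe sets.

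The endothelial label was checked against its markers, which ran in part downward. PECAM1 and CDH5, junction proteins of endothelium, were bright on all 9 arrays. PECAM1 averaged 8453 ± 964 at passage 4, 6981 ± 1267 in regenerated cells and 7894 ± 759 at passage 1 (SD, n = 3 each), and neither gene passed in any comparison. CDH5 averaged 9184 ± 703 at passage 4, 10190.3 ± 1431 in regenerated cells and 9727 ± 979 at passage 1 (SD, n = 3 each). VWF and KDR, also defining genes of endothelium, were below the filter at their brightest probe sets. Another VWF probe set was tested and passed in no comparison. It averaged 6.31 at passage 4, 42.0 in regenerated cells and 35.8 at passage 1. The 12 endothelial markers tested had a median of -0.52 for passage 4 minus passage 1 with 3 positive, -0.20 for regenerated minus passage 1 with 4 positive and -0.21 for passage 4 minus regenerated cells with 4 positive. Among them NOS3 fell in passage 4 against passage 1 cells, ENG rose and CLDN5 fell in regenerated against passage 1 cells, and ENG was lower at passage 4 than in regenerated cells. The summed signal of the 13 measured ran from 24336 to 25381 at passage 4, 23150.1 to 33750.3 in regenerated cells and 24810 to 30309 at passage 1. Markers of fibroblasts were highest in regenerated cells: the summed signal of the 8 measured genes of 10 listed ran from 1989 to 2613 there, against 934 to 1178 at passage 4 and 527 to 842 at passage 1. FAP, THY1 and LUM, 3 of the 7 tested, rose in regenerated against passage 1 cells, and FAP and THY1 were lower at passage 4 than in regenerated cells. The 7 had a median of 0.44 for passage 4 minus passage 1 with 6 positive and 0.75 for regenerated minus passage 1 with 7 positive. For passage 4 minus regenerated cells it was -0.55 with 2 positive. DCN averaged 127 at passage 4, 40.4 in regenerated cells and 35.1 at passage 1. FAP was above the filter's percentile only on regenerated arrays, and LUM on 0 passage 1 arrays and 2 of 3 regenerated arrays. Smooth muscle marker sums ran from 18799 to 35333 at passage 4, 33769 to 48219 in regenerated cells and 18093 to 38616 at passage 1, with SMTN past the threshold in regenerated against passage 1 cells, as 1 of 6 tested, and CNN1 lower at passage 4 than in regenerated cells. DES and MYOCD were below the filter. Of 8 measured leukocyte markers, 7 were below the filter, PTPRC, CD3E and CD14 among them, and the 1 tested passed in no comparison. The summed signal of the 8 ran from 4413 to 5657 at passage 4, 6126 to 7217 in regenerated cells and 5112 to 6840 at passage 1. The part of these cell types in the members' values was not tested.

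Signal at the 5' end of transcripts relative to the 3' end also varied between arrays. The log2 difference between the 5' and 3' probe sets of actin was -0.35, -0.54 and -0.45 at passage 4, -1.65, -2.16 and -2.78 for regenerated cells and -0.67, -1.71 and -1.37 at passage 1. For GAPDH it was -0.05, 0.01 and -0.07 at passage 4, -0.24, -0.45 and -0.56 in regenerated cells and -0.07, 0.07 and 0.06 at passage 1. By GAPDH, passage 1 arrays 2 and 3 thus did not stand with the regenerated arrays. For the spike-in transcripts dap and thr it was -2.09, -1.77 and -1.82 at passage 4, -4.36, -4.66 and -5.19 in regenerated cells and -1.99, -4.87 and -4.25 at passage 1. By the largest gap in that measure, of 2.16 against a next gap of 0.32, passage 1 array 1 fell with the passage 4 arrays and passage 1 arrays 2 and 3 with the regenerated arrays. This split was inferred from the spike-in signals, and the labels name no labelling batch. A fit with the split as a block, called the labelling block below, sets passage 4 against passage 1 array 1, and regenerated cells against passage 1 arrays 2 and 3. All passage 4 arrays fall on 1 side of the split and all regenerated arrays on the other, so the block compares these groups only through passage 1. Some values of this fit are given beside the members below, as are some from 2 settings added after the data were seen. They take regenerated array 1 alone for its group, or the mean 5' to 3' difference of actin and ef1a, without GAPDH, as a covariate. With regenerated array 1 alone the spread comes from the other groups, and the lone array is assumed to vary as they do. The endothelial, smooth muscle and fibroblast markers above had 0 calls in all 3 comparisons with the covariate. With the labelling block these lists had 2, 1 and 2 calls in regenerated against passage 1 cells. In the other comparisons the block left 0.

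LMNB1, the gene of lamin B1, the B-type lamin whose loss is the most used lamina mark of senescence, was higher at passage 4 than in regenerated cells. Its probe set Ssc.21730.1.S1_at read 621, 822 and 1018 at passage 4, 451, 131 and 88.7 in regenerated cells and 393, 368 and 659 at passage 1. All passage 4 arrays stood above all regenerated arrays, while passage 1 overlapped both groups. The group means were 820.3 ± 199 at passage 4, 223 ± 198 in regenerated cells and 473 ± 162 at passage 1 (SD, n = 3 each). The log2 difference of passage 4 and regenerated cells was 2.09 (SE 0.46, 95% interval 1.08 to 3.10, limma adjusted p = 0.0138), a 3.67-fold ratio of means.

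Most of the low LMNB1 signal lay in 2 of the regenerated arrays. Regenerated array 1, at 451, was inside the passage 1 range, and arrays 2 and 3 were below it. Against passage 1 the difference of regenerated cells was -1.30 (95% interval -2.31 to -0.28, limma adjusted p = 0.125), which did not pass. Without regenerated array 1 it was -1.93 and passed (adjusted p = 0.00658), and with that array alone the value was -0.02. The difference of passage 4 and passage 1 was 0.79 (95% interval -0.22 to 1.81, limma adjusted p = 0.393). The call of passage 4 against regenerated cells was lost without passage 4 array 3 (1.92, adjusted p = 0.0548), regenerated array 2 (1.89, adjusted p = 0.0644) or regenerated array 3 (1.65, adjusted p = 0.0588). With the labelling block it was 2.41 (adjusted p = 0.187), with regenerated array 1 alone 0.81 (adjusted p = 0.39), and with the covariate 0.33 (adjusted p = 0.952).

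LMNA, which encodes lamins A and C, the A-type lamins that stiffen the nucleus, passed in none of the 3 comparisons. Its brighter probe set Ssc.944.1.A1_at read 5614, 4610.1 and 4796 at passage 4, 6575, 4104 and 4980.0 in regenerated cells and 3057, 5894 and 7541 at passage 1. The passage 1 arrays held both the lowest and the highest value, and every group overlapped the others. The log2 difference was -0.04 (95% interval -0.66 to 0.58) for passage 4 minus passage 1, -0.01 (-0.63 to 0.61) for regenerated minus passage 1 and -0.04 (-0.66 to 0.58) for passage 4 minus regenerated cells. With the labelling block the passage 4 differences were 0.70 against passage 1 and 1.08 against regenerated cells (limma adjusted p = 0.284 and 0.155), so their sign was not stable.

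The second LMNA probe set, Ssc.5112.2.S1_at, read 148, 149 and 316 at passage 4, 206, 245 and 317 in regenerated cells and 109, 384 and 224 at passage 1. Here too all groups overlapped. Its differences were -0.14 for passage 4 minus passage 1, 0.23 for regenerated minus passage 1 and -0.37 for passage 4 minus regenerated cells, with limma adjusted p of 0.894, 0.792 and 0.6. The LMNA probe sets correlated with r = 0.42 over the 9 arrays.

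TMPO encodes the lamina-associated polypeptides 2, some of which sit in the inner nuclear membrane and bind B-type lamins while others bind A-type lamins in the nuclear interior. Its probe set Ssc.31207.1.S1_at read 224, 246 and 241 at passage 4, 72.1, 56.2 and 35.4 in regenerated cells and 208, 93.2 and 102 at passage 1. All passage 4 arrays lay above all passage 1 arrays, and all regenerated arrays lay below them. Passage 1 array 1 was close to the passage 4 arrays, and the other passage 1 arrays were nearer to regenerated cells. The group means were 237 ± 11.4 at passage 4, 54.6 ± 18.4 in regenerated cells and 134 ± 63.96 at passage 1 (SD, n = 3 each).

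TMPO was higher at passage 4 than in regenerated cells by 1.88 on the log2 scale (SE 0.32, 95% interval 1.18 to 2.57, limma adjusted p = 0.005), a 4.35-fold ratio of means. With each of the 9 arrays left out in turn, its adjusted p ran from 0.00112 to 0.0244. Against passage 1 the difference was 0.83 for passage 4 (adjusted p = 0.167) and -1.05 for regenerated cells (adjusted p = 0.0783). Passage 4 against passage 1 passed without passage 1 array 1 (1.16, adjusted p = 0.0299), and regenerated against passage 1 passed with quantile normalization (-1.13, adjusted p = 0.0444). With the labelling block TMPO was at 0.18 for passage 4 minus passage 1 (adjusted p = 0.888), -0.72 for regenerated minus passage 1 (adjusted p = 0.148) and 0.89 for passage 4 minus regenerated cells (adjusted p = 0.328). The last difference was 1.52 with regenerated array 1 alone (adjusted p = 0.179) and 0.45 with the covariate (adjusted p = 0.886). The probe set was not bright in regenerated cells, where 2 of 3 arrays were above the array's 40th percentile used as the filter.

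HMGB1, the high mobility group box protein that senescent human cells release, had 4 probe sets. The brightest, Ssc.11100.1.S1_at, read 11144, 11495 and 11449.5 at passage 4, 9613, 8244 and 9156 in regenerated cells and 8965, 8549 and 9264 at passage 1. The passage 4 arrays were all above the other 6, and regenerated cells overlapped passage 1. The log2 difference was small, 0.35 for passage 4 minus passage 1 (SE 0.11, limma adjusted p = 0.1) and 0.34 for passage 4 minus regenerated cells (SE 0.11, limma adjusted p = 0.067). Regenerated minus passage 1 was 0.01 (95% interval -0.23 to 0.25), and its sign turned with median centring (-0.02) and with quantile normalization (-0.05). Passage 4 against regenerated cells passed in 1 of 21 other settings, quantile normalization (0.41, limma adjusted p = 0.0194). That difference was 0.33 with the labelling block (limma adjusted p = 0.442) and 0.25 with the covariate (limma adjusted p = 0.878). Median centring gave 0.21 (limma adjusted p = 0.315), and regenerated array 1 alone 0.24.

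The other HMGB1 probe sets gave no call. Ssc.11100.1.S2_at read 3327, 4974 and 4528 at passage 4, 3078, 4114 and 3051 in regenerated cells and 3308, 2923 and 3056 at passage 1, so that passage 4 array 1 was only just above passage 1 array 1. Its difference of passage 4 and passage 1 was 0.45 (limma adjusted p = 0.198). Ssc.20896.1.S1_at read 1953, 2096 and 2066 at passage 4, 2388, 1503 and 1415 in regenerated cells and 1578, 2029 and 2626 at passage 1. The groups overlapped, and its differences were 0.00 for passage 4 minus passage 1, -0.24 for regenerated minus passage 1 and 0.24 for passage 4 minus regenerated cells. Median centring turned the passage 4 minus passage 1 difference to -0.15. The fourth probe set, Ssc.20896.2.S1_at, read from 2.55 to 46.5 over the 9 arrays and was below the filter. Pairs of HMGB1 probe sets correlated with r from -0.06 to 0.56 over the 9 arrays, so the 4 did not measure 1 common pattern. Whether related sequences hybridised to them was not tested.

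HMGB2, a close relative of HMGB1 that is most abundant in dividing cells, read 1864, 1867 and 1606 at passage 4, 1227, 1146 and 655 in regenerated cells and 1307, 912 and 1626 at passage 1 (probe set Ssc.226.1.S1_at). All passage 4 arrays were above all regenerated arrays, whereas passage 1 array 3 reached into the passage 4 range. The difference of passage 4 and regenerated cells was 0.86 (SE 0.26, 95% interval 0.28 to 1.43), just short of the threshold (limma adjusted p = 0.0548). It passed in 5 of 21 other settings, among them quantile normalization (adjusted p = 0.0483) and the fit of those 2 groups only (adjusted p = 0.0359). It also passed without regenerated array 1 (1.02, adjusted p = 0.0357), passage 1 array 2 (adjusted p = 0.0411) or passage 1 array 3 (adjusted p = 0.0456). With the labelling block the difference was 0.76 (limma adjusted p = 0.431), and with regenerated array 1 alone 0.53. The covariate turned it to -0.18 (adjusted p = 0.954). Against passage 1 HMGB2 was at 0.50 for passage 4 and -0.35 for regenerated cells, with limma adjusted p of 0.33 and 0.476.

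EZH2, the methyltransferase of Polycomb repressive complex 2, which marks histones at silenced genes, was also higher at passage 4 than in regenerated cells. Its probe set Ssc.5073.1.A1_at read 1117, 808 and 914 at passage 4, 448, 439 and 408 in regenerated cells and 377, 529 and 837 at passage 1. The regenerated arrays were close together and all below passage 4, and the passage 1 arrays ran from below the regenerated arrays into the passage 4 range. The means were 946 ± 157 at passage 4, 432 ± 20.8 in regenerated cells and 581 ± 234 at passage 1 (SD, n = 3 each). The difference of passage 4 and regenerated cells was 1.09 on the log2 scale (SE 0.26, 95% interval 0.51 to 1.67, limma adjusted p = 0.0203), a 2.19-fold ratio of means. The left-out probe set of EZH2 and AKAP9 read 639, 646 and 591 at passage 4 and 498, 868 and 590 in regenerated cells. At passage 1 it read 900, 455 and 471, and all its groups overlapped.

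EZH2 differed from TMPO in which passage 1 array was nearest to passage 4: array 3 for EZH2, array 1 for TMPO. Against passage 1 EZH2 was at 0.75 for passage 4 (adjusted p = 0.139) and -0.34 for regenerated cells (adjusted p = 0.488). Without passage 1 array 3 the passage 4 difference was 1.04 and passed (adjusted p = 0.0352). With the labelling block EZH2 was at 1.28 for passage 4 minus passage 1 (adjusted p = 0.074), -0.61 for regenerated minus passage 1 (adjusted p = 0.148) and 1.89 for passage 4 minus regenerated cells (adjusted p = 0.0722). The passage 4 against regenerated call was also lost without passage 4 array 1 or 3 (adjusted p = 0.0816 and 0.0621) and without regenerated array 2 or 3 (adjusted p = 0.0639 and 0.075). With regenerated array 1 alone it was 1.04 (adjusted p = 0.294), and with the covariate 1.42 (adjusted p = 0.667).

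**Figure D2:**
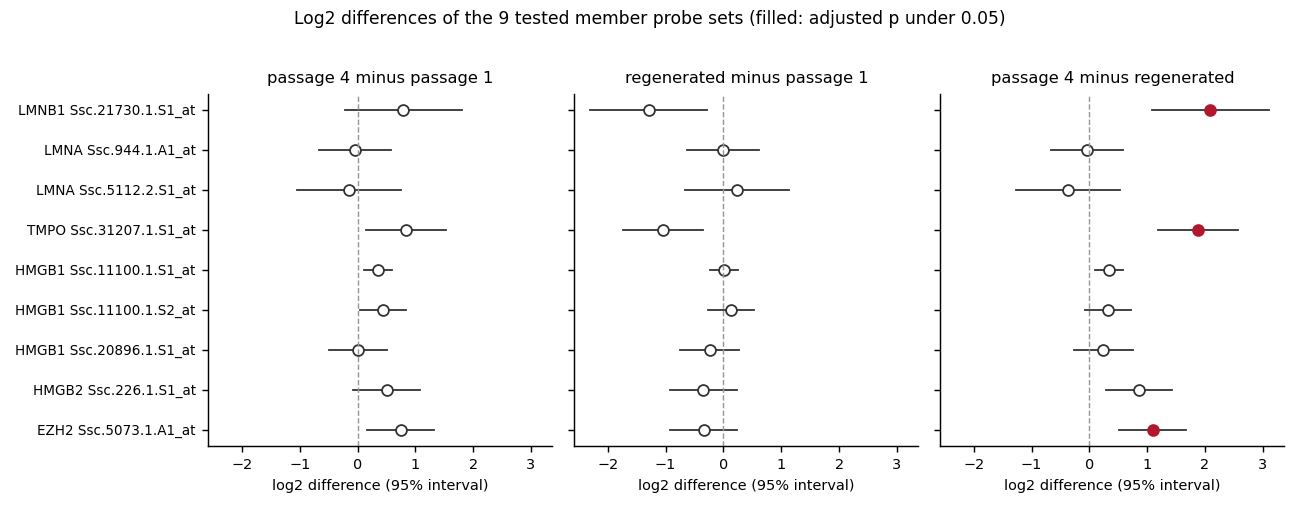
Log2 difference (x axes) of the 9 tested member probe sets (rows) for passage 4 minus passage 1, regenerated minus passage 1 and passage 4 minus regenerated cells, with 95% intervals of the fit, not adjusted for the number of probe sets. Filled points, with an adjusted p under 0.05, are LMNB1 (2.09), TMPO (1.88) and EZH2 (1.09) in the right panel, and the other panels hold none.

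Over the 6 member genes, each taken at its brightest probe set, the median log2 difference was 0.63 for passage 4 minus passage 1, with 5 of 6 positive and a range from -0.04 to 0.83. Over all 5494 named genes tested the median of that comparison was -0.02. For regenerated minus passage 1 the members' median was -0.35 with 1 of 6 positive, beside -0.04 over all genes. For passage 4 minus regenerated cells it was 0.97 with 5 of 6 positive, beside 0.01 over all genes. Centring each array on its median lowered the median over all tested probe sets by 0.16 in passage 4 minus passage 1 and by 0.13 in passage 4 minus regenerated cells, and left the members' medians at 0.47 and 0.85. Over all tested probe sets the same choice changed 415 higher and 318 lower calls to 299 and 455 in passage 4 against passage 1, and 1246 and 666 to 1025 and 934 in passage 4 against regenerated cells.

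Groups that did not overlap were counted as a description. At passage 4, 3 of 9 member probe sets had all arrays above all passage 1 arrays, against 15.3% of tested probe sets, and 5 of 9 had all arrays above all regenerated arrays, against 20.1%. The 3 were TMPO and the HMGB1 probe sets Ssc.11100.1.S1_at and Ssc.11100.1.S2_at, the last only just (3327 against 3308). In regenerated cells 1 of 9, TMPO, lay wholly below passage 1, against 10.8%.

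**Figure D3:**
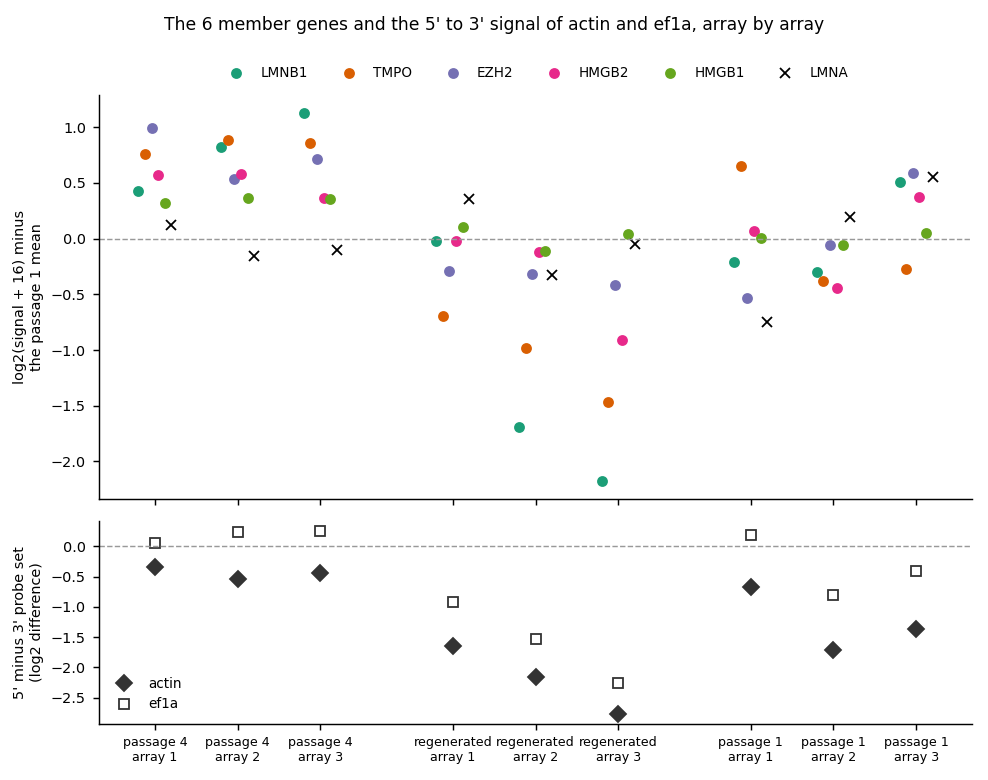
Upper panel: log2(signal + 16) of the 6 member genes in each array minus the gene's passage 1 mean (y axis), at the brightest probe set of each gene. Lower panel: log2 difference of the 5' and 3' probe sets of actin and ef1a in the same arrays. LMNB1 and TMPO are lowest in regenerated array 3, the array with the lowest actin value (-2.78), and highest at passage 4, where actin ran from -0.54 to -0.35.

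Array by array, LMNB1, TMPO and HMGB2 followed each other closely. Over the 9 arrays LMNB1 correlated with HMGB2 at r = 0.84 and with TMPO at r = 0.84, and HMGB2 with TMPO at r = 0.82. EZH2 correlated with HMGB1 at r = 0.77, and LMNA with the other members at r from -0.26 to 0.41. These values describe 9 arrays that share groups and labelling, and they follow in part from the differences between the groups. The 5' to 3' difference of actin and ef1a had the same order over the regenerated arrays as LMNB1 and TMPO, array 1 above array 2 and array 2 above array 3, and its part in their values was not tested beyond the settings above.

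The genes whose pattern over the 9 arrays was most like that of LMNB1, among 5488 named genes, were PPA2, COQ5, FANCF, EXOSC7 and CDC123, with r from 0.96 to 0.97. In all, 76 genes had r above 0.9. PPA2, a mitochondrial pyrophosphatase, read 624, 576 and 594 at passage 4, 362, 165 and 163 in regenerated cells and 374, 386 and 584 at passage 1. As for LMNB1, regenerated array 1 stood above the other regenerated arrays and passage 1 array 3 above the other passage 1 arrays. Most like the mean pattern of the 6 members were RFC5, RAD51AP1, CSTF1, MAD2L1 and MCM3, each with r = 0.98, and 100 genes had r above 0.9. RFC5 and MCM3 act in DNA replication, RAD51AP1 in repair by recombination and MAD2L1 in the spindle checkpoint, while CSTF1 acts in the 3' end processing of mRNA.

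Partners of the lamina and envelope, 11 genes tested of 24 listed, had 0 calls in passage 4 against passage 1 and in passage 4 against regenerated cells (limma, with 0 at an unadjusted p under 0.05 in each). Their medians were 0.06 and 0.13. In regenerated against passage 1 cells 1 fell, FNTA, a subunit of the enzyme that attaches the farnesyl anchor to lamins, with 1643 ± 169 in regenerated and 2521 ± 189 in passage 1 cells (log2 -0.61, limma adjusted p = 0.0394). Its arrays did not overlap between these groups. The call was lost with the covariate and with regenerated array 1 alone, at -0.49 in both.

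Among 9 HMG and other architectural chromatin genes tested, 2 were higher at passage 4 than in regenerated cells. Their share was 22.2%, against 12.5% of all tested probe sets. HMGN2, a nucleosome-binding protein, read 8802 ± 814 at passage 4 and 5020.0 ± 1719 in regenerated cells (log2 0.86, limma adjusted p = 0.0161). CTCF, which insulates chromatin domains, differed by 0.60 (limma adjusted p = 0.0465). Of these 2 calls neither was made with the labelling block (limma adjusted p = 0.232 for HMGN2 and 0.314 for CTCF), the covariate or regenerated array 1 alone, and the block called HMGA1 there instead. In regenerated against passage 1 cells 1 fell, HMGA1, a DNA-bending protein (log2 -1.28, limma adjusted p = 0.0396), a call also lost with the covariate and with regenerated array 1 alone. In passage 4 against passage 1 cells 0 of 9 passed in limma, with 2 at an unadjusted p under 0.05.

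Of 16 HP1 and heterochromatin genes, 2 were higher at passage 4 than in regenerated cells, a share of 12.5%, the same as that of all tested probe sets. CHAF1A, a subunit of the chromatin assembly factor of replicating DNA, read 226, 191 and 261 at passage 4, 99.9, 64.9 and 35.2 in regenerated cells and 94.9, 102 and 229 at passage 1. ASF1B, a histone chaperone, read 426, 380.2 and 428 at passage 4, 202, 111 and 89.8 in regenerated cells and 156, 239 and 283 at passage 1. In both genes all passage 4 arrays lay above all regenerated arrays, with log2 differences of 1.62 and 1.58 (limma adjusted p = 0.0155 and 0.00794). In the list 0 genes were called with the labelling block, the covariate or regenerated array 1 alone. The list had 0 calls against passage 1, with 5 and 6 at an unadjusted p under 0.05 in limma for passage 4 and regenerated cells.

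The Polycomb list without EZH2 had 0 of 13 genes past the threshold in all 3 comparisons. Of these, 1, 1 and 2 had an unadjusted p under 0.05 in limma for passage 4 minus passage 1, regenerated minus passage 1 and passage 4 minus regenerated cells. Their medians were -0.03, 0.14 and -0.21, beside 0.75, -0.34 and 1.09 for EZH2 itself. EED, a core partner of EZH2 in its complex, read 1017, 1670.3 and 1557 at passage 4, 1596, 1697 and 1626 in regenerated cells and 1617, 1814 and 2119.8 at passage 1. Its passage 4 arrays overlapped the regenerated arrays, and its log2 difference of passage 4 and regenerated cells was -0.24 (limma adjusted p = 0.47).

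Genes of HMGB1 export and of its receptors gave 2 calls of 7, both in passage 4 against regenerated cells, where 2 of the 7 differences were positive. The share called there was 28.6%, against 12.5% of all tested probe sets. The list's medians were -0.51 for passage 4 minus passage 1, -0.66 for regenerated minus passage 1 and -0.38 for passage 4 minus regenerated cells. XPO1, the nuclear exporter that carries HMGB1 out of the nucleus, read 220.1, 259 and 187 at passage 4, 31.7, 24.6 and 14.4 in regenerated cells and 197, 57.4 and 43.9 at passage 1. As for TMPO, passage 1 array 1 was beside the passage 4 arrays. MYD88, the adaptor of Toll-like receptors, read 284, 272 and 199 at passage 4, 83.3, 23.5 and 42.7 in regenerated cells and 214, 81.8 and 135 at passage 1. All regenerated arrays of XPO1 were below the array's 40th percentile, and with that percentile as the floor XPO1 was at least 4.79-fold higher at passage 4 (limma adjusted p = 0.00426). MYD88, with 2 of 3 regenerated arrays above it, differed by 2.11 on the log2 scale (limma adjusted p = 0.00647). Neither call was made with the labelling block, the covariate or regenerated array 1 alone. TLR4, a receptor for HMGB1, did not pass and averaged 2457 ± 235 at passage 4, 3213 ± 549.8 in regenerated cells and 2048 ± 385 at passage 1 (SD, n = 3 each).

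Sterol synthesis genes were listed because LBR is also a sterol reductase. Of 11, 0 passed in limma in any comparison, with 0, 5 and 2 at an unadjusted p under 0.05 in the 3 comparisons. Their medians were 0.25 for passage 4 minus passage 1, 0.41 for regenerated minus passage 1 and -0.26 for passage 4 minus regenerated cells.

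Cell division genes moved in the direction of LMNB1, TMPO and EZH2 and in larger numbers. Of 26 tested, 10 rose in passage 4 against passage 1 and 17 were higher at passage 4 than in regenerated cells. With 0 lower in either, these were shares of 38.5% and 65.4%, against 4.79% and 12.5% of all tested probe sets. In regenerated against passage 1 cells 0 passed in limma, with 2 at an unadjusted p under 0.05. The medians were 0.92, -0.26 and 1.16, beside 0.63, -0.35 and 0.97 for the members. CCNA2, the cyclin of DNA synthesis and entry into mitosis, read 274, 239.5 and 321 at passage 4, 72.9, 56.3 and 39.1 in regenerated cells and 118, 69.3 and 76.3 at passage 1. All its passage 4 arrays were above the other 6, with log2 differences of 1.52 against passage 1 and 2.05 against regenerated cells (limma adjusted p = 0.0126 and 0.00192). CENPF, a kinetochore protein, and TYMS, thymidylate synthase, also rose at passage 4 against passage 1, by 1.91 and 1.79. MCM4, a subunit of the replicative helicase, and TYMS were higher than in regenerated cells by 3.10 and 2.65. Of the 3 regenerated arrays of MCM4, 1 was above the filter's percentile. The list had 1 call with the labelling block in passage 4 against passage 1 and 0 against regenerated cells, with the covariate 0 and 0, and with regenerated array 1 alone 0 against that array.

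Of 14 arrest and senescence genes tested, 1 fell in passage 4 against passage 1 cells, and 1 rose and 1 fell in regenerated against passage 1 cells. At passage 4, 1 was higher and 3 were lower than in regenerated cells. The shares called were 7.14%, 14.3% and 28.6% in the 3 comparisons, against 4.79%, 5.49% and 12.5% of all tested probe sets. CDKN1A, which encodes the cell cycle inhibitor p21, averaged 3939 ± 119 at passage 4, 6218 ± 1234 in regenerated cells and 4960 ± 1137 at passage 1 (SD, n = 3 each). It was lower at passage 4 than in regenerated cells (log2 -0.64, limma adjusted p = 0.0442), which the labelling block put at -0.12 and the covariate turned to 0.24, and did not pass against passage 1 in either group. CDKN1B, the inhibitor p27, read 449.8, 578 and 619 at passage 4 and 2301, 1265 and 1162 in regenerated cells, with a log2 difference of -1.44 (limma adjusted p = 0.00791). CDKN2C, an inhibitor of the kinases that start the cycle, was at least 2.36-fold higher at passage 4 than in regenerated cells, with all regenerated arrays at 10.8 or below and so under the floor (limma adjusted p = 0.0118). GADD45A, a gene induced by DNA damage, rose in regenerated against passage 1 cells by 1.18 (limma adjusted p = 0.00531) and was at 0.33 for passage 4 (limma adjusted p = 0.391). It was lower at passage 4 than in regenerated cells, at -0.86 (limma adjusted p = 0.0139). PML, the organiser of nuclear bodies, fell against passage 1 at passage 4 and in regenerated cells, by 1.37 and 0.95 on the log2 scale. The passage 4 difference of PML did not pass with the labelling block (-1.37, limma adjusted p = 0.0549). In regenerated against passage 1 cells the list had 2 calls with the block. With the covariate it had 0 there, so GADD45A and PML were not called. In passage 4 against regenerated cells the 4 calls of the list became 0 with the block, 0 with the covariate and 1, CDKN1B, with regenerated array 1 alone.

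**Figure D4:**
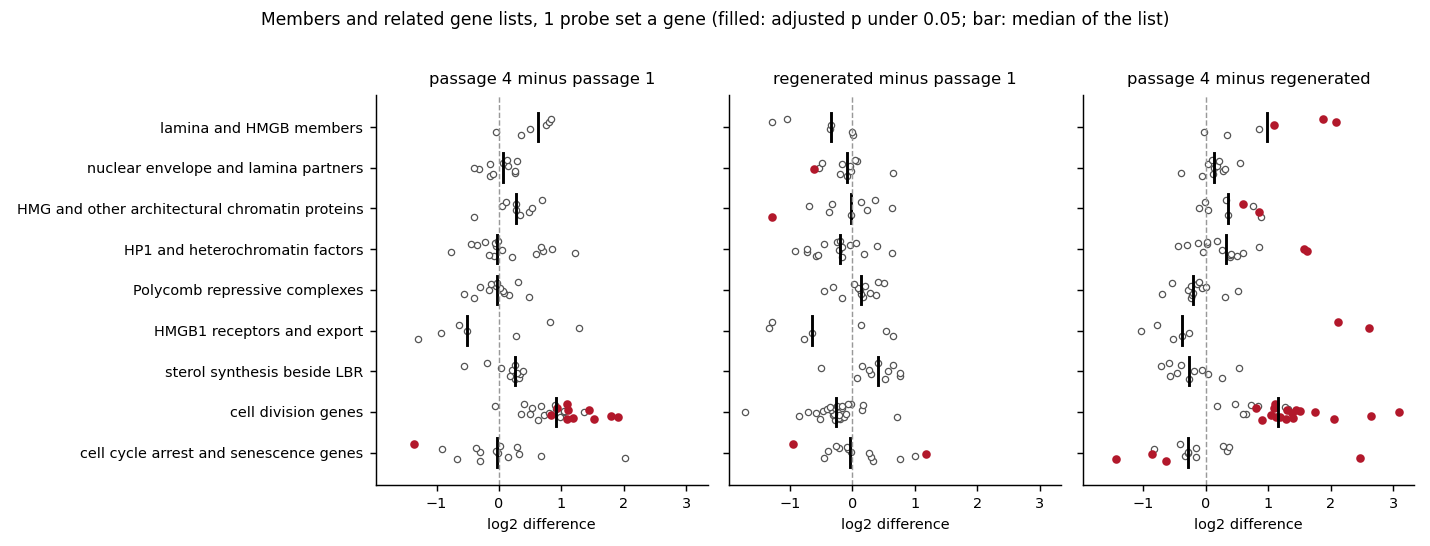
Log2 differences (x axes) of the 6 member genes and of 8 related gene lists (rows), 1 point a gene at its brightest tested probe set, with a bar at the median and filled points for an adjusted p under 0.05. The members' medians (0.63, -0.35 and 0.97) lie closest to those of the cell division genes (0.92, -0.26 and 1.16). The rows of lamina partners (0.06, -0.08 and 0.13) and Polycomb genes (-0.03, 0.14 and -0.21) lie nearer 0 than both in all panels.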

How the data were processed

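The deposited values are linear probe set intensities of 9 arrays, called MAS5 signals in the submitters' processing notes. The MAS5 version, its scaling target and the detection calls were not stated there. Trimming 2% from both ends left a mean of 500.1 on each array, so the authors' scaling was kept. The number of arrays limits the precision.

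After 124 control probe sets were left out of 24123, probe sets above the array's own 40th percentile (37.2 to 49.2) on 3 or more of 9 arrays were tested, 15299 in all. Log2(signal + 16) was fitted over all 9 arrays in limma 3.58.1 under R 4.3.3 (lmFit, eBayes with an intensity trend; 6 residual and 5.65 prior degrees of freedom), two-sided, with Benjamini-Hochberg adjustment over all tested probe sets. Where all 3 arrays of a group lay under that percentile, a fold was given as a bound, with the percentile as the floor of each array, since no detection calls were used here. The script was tested on simulated data.

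By the platform annotation 10069 probe sets had 1 symbol, 198 had more and 13732 had none; 9961 were matched by Entrez identifier to RefSeq genes, which changed 0 symbols. Lists used the brightest probe set of a gene. All member probe sets are given. From each list, up to 3 genes past the threshold with the largest differences in a comparison are named, with CDKN1A, PECAM1 and CDH5 always given. EED and TLR4, and the marker genes FAP, THY1, LUM, DCN, SMTN, CNN1, NOS3, ENG, CLDN5, VWF, KDR, DES and MYOCD, were named after their values were seen. The 5 genes most like LMNB1, and like the members' mean, were taken by Pearson correlation.

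The members and lists were chosen with earlier results of these data known. The labels do not say whether replicate numbers pair the arrays, and the main fit did not pair them. Deviations of same-numbered arrays correlated from -0.14 to 0.19 and those of differently numbered arrays from -0.20 to 0.18, which does not settle it. Alternatives were the pseudocount, filter, normalization, trend, the 2 groups alone, replicate and labelling blocks and each array left out. Coordinates are not given, since the files state no build.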

Additional observations from a re-analysis of the deposited data

Results flagged for a closer look

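TMPO was the 1 member probe set that lay on opposite sides of passage 1 in the other groups: all 3 passage 4 arrays were above, and all 3 regenerated arrays below, every passage 1 array. Of all tested probe sets 15.3% lay wholly above passage 1 at passage 4 and 10.8% wholly below it in regenerated cells. The share that did both is not given here, so how unusual TMPO is was not tested. The difference of its 2 changes against passage 1 is the passage 4 minus regenerated value given above, 1.88 on the log2 scale (limma adjusted p = 0.005), and no further test. Neither change passed alone (0.83 and -1.05). With the labelling block the difference was 0.89 (adjusted p = 0.328). Groups of 3 arrays were not searched for arrays that stand apart.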

How the results depend on the processing

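In passage 4 against regenerated cells the count of 3 calls was 5 with quantile normalization, 2 with the stricter filter, where TMPO is not tested, 0 with the labelling block, 0 with regenerated array 1 alone and 0 with the covariate, the last 2 added after the data were seen. Of all 15299 probe sets, 35 were called with the labelling block and 0 with the covariate, in place of 1912. The median SE was 0.44 and 0.55 there, in place of 0.27. Both measures set all passage 4 arrays apart from all regenerated arrays, so these fits can hardly tell group from measure. They and the fit with regenerated array 1 alone also had fewer residual degrees of freedom. The members' median of 0.97 was 0.67 with regenerated array 1 alone and 0.38 with the covariate. The median for passage 4 minus passage 1, 0.63, was 0.21 with the covariate, and that for regenerated minus passage 1, -0.35, was -0.022 with regenerated array 1 alone. In regenerated against passage 1 cells 1 member passed with quantile normalization. With each array left out in turn, the counts ran from 0 to 1, 0 to 1 and 1 to 4 in the 3 comparisons, and the medians from 0.48 to 0.69, -0.49 to -0.11 and 0.81 to 1.07. With the replicate block 0, 0 and 3 members passed and no member's call changed. The number of all calls moved by over 1.5 times in leave-one-out fits too: in passage 4 against passage 1 leaving out passage 1 array 1 gave 1403 calls and leaving out array 2 gave 244, in place of 733. The cause of these shifts was not tested.

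Signs turned for differences that did not pass, and for 1 that did, CDKN1A in passage 4 minus regenerated cells. In LMNA Ssc.944.1.A1_at, passage 4 minus passage 1 was 0.70 with the labelling block, 0.13 with the covariate and -0.42 to 0.23 with single arrays left out. Regenerated minus passage 1 was 0.35 with regenerated array 1 alone and -0.38 to 0.27 with single arrays left out. Passage 4 minus regenerated cells was 1.08 with the block, 0.42 with the covariate, 0.0042 with quantile normalization and -0.20 to 0.14 with single arrays left out. In LMNA Ssc.5112.2.S1_at the block gave 0.73, -0.21 and 0.95 in the 3 comparisons and the covariate 0.47, -0.77 and 1.25. Single arrays left out gave -0.58 to 0.26 and -0.21 to 0.63 against passage 1, and regenerated array 1 alone gave -0.047.

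In HMGB1 Ssc.20896.1.S1_at, passage 4 minus passage 1 was -0.15 with median centring, -0.11 with the covariate and -0.18 to 0.19 with single arrays left out. Regenerated array 1 alone gave 0.23 for regenerated minus passage 1 and -0.23 for passage 4 minus regenerated cells, where the covariate gave -0.048. Regenerated minus passage 1 in Ssc.11100.1.S1_at was -0.020 with median centring, -0.053 with quantile normalization and -0.038 to 0.073 with single arrays left out. In Ssc.11100.1.S2_at it was -0.0063 with regenerated array 1 alone and -0.013 to 0.20 with single arrays left out. The covariate put HMGB2 at 0.29 for regenerated minus passage 1 and -0.18 for passage 4 minus regenerated cells. It put CDKN1A at 0.028, -0.21 and 0.24 in the 3 comparisons, and the block put it at 0.039 for passage 4 minus passage 1. There, PECAM1 was at -0.061 with median centring and -0.039 with the block. CDH5 was at 0.011 with the block, 0.012 with the covariate and -0.14 to 0.00060 with single arrays left out. For regenerated minus passage 1, CDH5 was at -0.018 with quantile normalization, -0.089 with the covariate and -0.014 to 0.18 with single arrays left out, and the covariate gave 0.10 for passage 4 minus regenerated cells.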
